A study of Mus musculus with 3 samples.

Results

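The 10 immediate early genes Fos, Fosb, Jun, Junb, Jund, Egr1, Atf3, Ier2, Zfp36 and Nr4a1 were taken by name from the count tables of mouse lacrimal gland (LG), the exocrine gland that secretes the watery part of the tears. They made up 10 of the 32285 genes listed, and all 10 were among the 20471 genes with at least 1 unique molecular identifier (UMI, 1 counted RNA molecule) in the cells kept. Single-cell 3′ RNA sequencing had been done on 1 Female library and 2 Male libraries of C57BL/6J mice at 2 months of age, without any treatment or transgene. Every library pooled the LGs of 3 mice, so that no animal has a value of its own, and the glands were digested with collagenase, dispase and accutase at body temperature and depleted of dead cells before capture. The Female library was prepared on another day and at another sequencing core than the Male libraries, and the effects of sex, of the core and of the day cannot be told apart. Undissociated glands were not analysed here, and how much of any level was present before digestion was not tested.

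Immediate early genes are transcribed within minutes of a stimulus by factors that the cell already holds, such as SRF with its partners, CREB and AP-1 itself, and their mRNAs decay quickly. Proteins of the Fos and Jun families pair to form the transcription factor AP-1, Egr1, Atf3 and Nr4a1 encode further transcription factors, and Zfp36 encodes tristetraprolin, which speeds the decay of cytokine and other AU-rich mRNAs. They respond to growth factors, wounding, neurotransmitters and heat, and warm enzymatic digestion is known to induce them in many tissues.

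The bases upstream of these genes are shown because such genes share short regulatory elements close to their starts. The RefSeq table for GRCm38.p6, the assembly behind mm10 to which the reads were aligned, held a promoter for 8 of the 10 genes. Egr1 and Ier2 had no entry. The 250 bases before the start were searched on both strands for the full cAMP response element (CRE, TGACGTCA), its core TGACG, which is also part of the full element, the AP-1 site TGACTCA, the Jun-type AP-1 site TGACATCA and the CArG box bound by SRF. No member held the full CRE, which 1.55% of the 32851 promoters in the table had, and none held TGACTCA, which 4.46% had. The core TGACG was present in 5 members (Fos, Fosb, Junb, Atf3 and Nr4a1) against 17.8% of all promoters. The windows of 5 genes that held a match are printed 5′ to 3′ on the strand of the gene, ending at the base before the start, with every match in capitals. They are Fos at chr12:85473640-85473889 (plus strand), Jun at chr4:95052223-95052472 (minus strand), Atf3 at chr1:191183334-191183583 (minus strand), Zfp36 at chr7:28379229-28379478 (minus strand) and Nr4a1 at chr15:101266596-101266845 (plus strand).
Fos: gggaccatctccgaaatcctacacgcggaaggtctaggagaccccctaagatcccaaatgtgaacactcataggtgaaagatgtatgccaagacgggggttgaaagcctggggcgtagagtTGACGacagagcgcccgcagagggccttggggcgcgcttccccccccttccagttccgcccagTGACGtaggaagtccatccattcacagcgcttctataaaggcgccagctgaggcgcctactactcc
Jun: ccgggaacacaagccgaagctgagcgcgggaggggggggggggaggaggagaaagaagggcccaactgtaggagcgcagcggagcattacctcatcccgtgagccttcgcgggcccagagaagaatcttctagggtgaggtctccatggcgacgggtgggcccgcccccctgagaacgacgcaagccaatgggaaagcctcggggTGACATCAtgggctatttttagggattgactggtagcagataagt
Atf3: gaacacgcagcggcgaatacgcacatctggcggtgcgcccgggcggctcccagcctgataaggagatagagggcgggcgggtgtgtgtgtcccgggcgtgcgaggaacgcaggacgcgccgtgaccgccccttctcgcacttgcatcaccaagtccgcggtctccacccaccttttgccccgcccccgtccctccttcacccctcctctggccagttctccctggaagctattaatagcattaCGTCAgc
Zfp36: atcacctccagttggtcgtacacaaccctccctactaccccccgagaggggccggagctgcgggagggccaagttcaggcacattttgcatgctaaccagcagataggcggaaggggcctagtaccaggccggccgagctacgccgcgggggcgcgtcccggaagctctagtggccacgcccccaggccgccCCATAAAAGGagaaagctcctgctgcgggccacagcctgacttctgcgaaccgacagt
Nr4a1: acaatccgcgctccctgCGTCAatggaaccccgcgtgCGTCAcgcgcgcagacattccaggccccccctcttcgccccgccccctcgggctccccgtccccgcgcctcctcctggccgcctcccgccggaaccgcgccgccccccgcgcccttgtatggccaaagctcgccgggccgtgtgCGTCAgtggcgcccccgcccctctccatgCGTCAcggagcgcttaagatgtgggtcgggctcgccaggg
Fos held TGACG 129 to 125 and 66 to 62 bases before its start. Nr4a1, whose window lies within the extent of the gene (chr15:101253902-101274795), held 4 copies on the other strand, printed as CGTCA, of which the nearest was 40 to 36 bases before the start. Atf3 held 1 copy on the other strand 7 to 3 bases before its start, Fosb 1 copy at 60 to 56 and Junb 1 copy at 106 to 102 bases. Jun held TGACATCA 45 to 38 bases before its start, a site found in 2.93% of promoters, and Zfp36 held a CArG box at 58 to 49 bases, found in 1.47%. Jund held none of them. The windows of these 8 genes ranged from 47.6% G and C in Jund to 74.4% in Nr4a1, against a mean of 53.2% over all promoters. A match describes the letters in the window and says nothing about whether a factor binds there.

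After filtering, 7652 cells of the Female library and 5295 and 5397 cells of the Male libraries were kept, with 55390678, 37641576 and 41269825 UMIs in all and medians of 3252, 1884 and 1788 UMIs a cell. Only 8 to 13 cell barcodes were shared between any pair of libraries. The cells fell into 12 named classes, each with at least 3 raised markers of its name and at least 20 cells in every library. There were acinar-like, Car6hi-like and Tfrchi-like secretory cells (the last 2 are acinar types marked by a carbonic anhydrase and by the transferrin receptor), Ltf+-like (lactoferrin) cells, duct-like cells and myoepithelial (MEC-like) cells, and non-epithelial fibroblast-like, endothelial-like, mural-like, lymphoid-like, macrophage-like and monocyte/dendritic-like cells. The 10 genes and the early, stress and heat shock genes of the lists used below had been left out of the features that made the classes. Genes outside these lists that vary with the members, such as Irf1 and Tsc22d1, had not been left out by name. Tear-protein transcripts took 66.8% of all UMIs in the Female library and 83.6% and 86.4% in the Male libraries. Levels are therefore given as CPM, here the UMIs of a gene per 1000000 UMIs outside tear-product and mitochondrial genes, for UMIs summed per class and library. Such a level is a share of the RNA of a class, so less of a gene and more of the other RNA cannot be told apart. Values in sets of 3 follow the order Female library, Male library 1 and Male library 2, and means carry the SD over these 3 libraries.

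The 10 genes together gave 281035, 57588 and 46777 UMIs, which was 0.507% of all UMIs in the Female library and 0.153% and 0.113% in the Male libraries. Free RNA was read from barcodes of 10 to 100 UMIs that had not been called as cells, where the 10 genes summed to 8095, 10943 and 9568 CPM from 101, 339 and 215 UMIs. Single genes had 1 to 77 UMIs there, so their levels in free RNA are coarse. Barcodes of 1 to 50 UMIs gave 12235, 8323 and 8316 CPM, so the Female level rose and both Male levels fell with that window, and the first window is used below. From the tear-product UMIs of non-epithelial cells, free RNA was put at 1346, 1073 and 1505 UMIs a cell, far above 100. Whether barcodes of so few UMIs hold the same mix of RNA as the droplets with cells was not tested. All values of free RNA below rest on this mix. The UMIs that free RNA could give each class were set beside the counts. In duct-like cells they were 2.30%, 6.76% and 9.70% of the members' UMIs. In lymphoid-like cells they reached 13.9%, 39.7% and 52.2%.

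Immediate early genes took the largest share of RNA outside tear-product and mitochondrial genes in duct-like cells and the smallest in acinar-like cells. The sum of the 10 genes in duct-like cells was 33522, 31113 and 30640 CPM (31758 ± 1546, n = 3). MEC-like cells, the contractile epithelial cells around the acini, followed at 25480, 25614 and 27078 (26057 ± 887). The libraries of these classes did not overlap with each other or with the next class. Mural-like cells, the pericytes and smooth muscle of the vessels, stood at 15454, 19893 and 21946 and fibroblast-like cells at 19115, 17281 and 17144, and these overlapped. Endothelial-like cells had 16844, 14765 and 14094, all below the fibroblast-like values, and overlapped with Tfrchi-like cells at 10968, 15605 and 17591.

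From lymphoid-like cells downwards every class overlapped with its neighbours. Their means were 9617 ± 1971 in lymphoid-like, 8987 ± 4430 in Car6hi-like, 8697 ± 2115 in macrophage-like, 7796 ± 1376 in monocyte/dendritic-like, 6543 ± 2882 in Ltf+-like and 4478 ± 2043 in acinar-like cells. The acinar-like sums were 2122, 5756 and 5557 CPM. In the acinar-like, Car6hi-like, Ltf+-like and Tfrchi-like classes the Female library lay below both Male libraries. The same order was seen in mural-like cells and, by little, in MEC-like cells. On the scale of all UMIs it held only for acinar-like, Car6hi-like and Ltf+-like cells. Tfrchi-like cells then had 4384 in the Female library against 3233 and 4147. With all UMIs as the total the order kept duct-like and MEC-like cells in front and acinar-like cells last, while Tfrchi-like cells moved from rank 6 to 8 and Car6hi-like cells from 8 to 11. The summed level in free RNA lay above that of acinar-like and Ltf+-like cells in every library with either window of barcodes. For lymphoid-like, macrophage-like and monocyte/dendritic-like cells it lay above or below the cells depending on the library and the window.

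**Figure D1:**
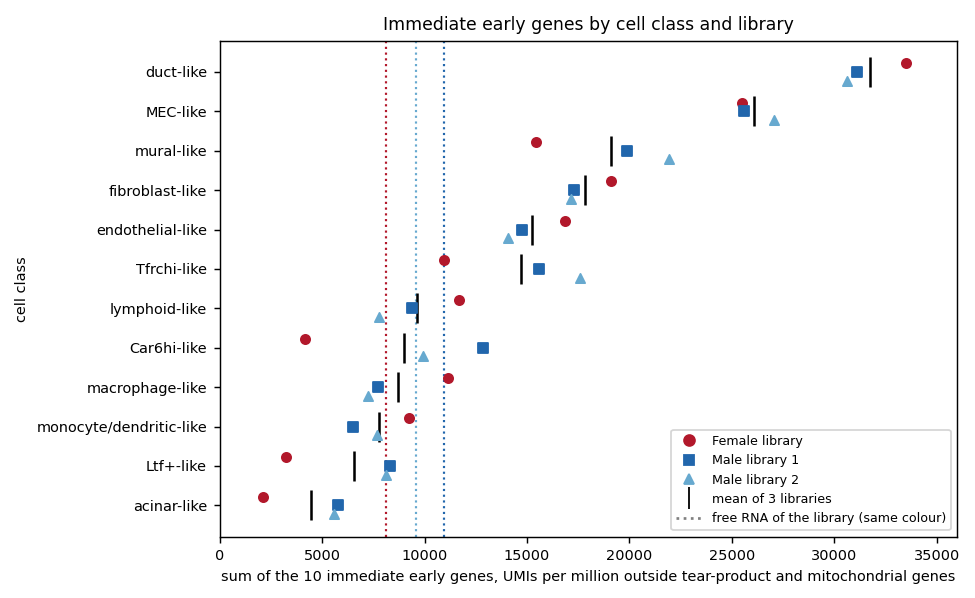
Sum of the 10 immediate early genes (x axis, CPM) in 12 cell classes (y axis). Points are the 3 libraries, black bars their mean and dotted lines the level in free RNA (barcodes of 10 to 100 UMIs) of the library of the same colour. Duct-like cells lie between 30640 and 33522 and acinar-like cells between 2122 and 5756.

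Fos (chr12:85473890-85477274) encodes the AP-1 subunit that binds DNA only as a partner of a Jun protein. It was highest in MEC-like cells, at 6899, 8488 and 7987 CPM. Duct-like cells had 6799, 6508 and 6243, just below every MEC-like value. Mural-like cells had 3895, 4593 and 5434 and fibroblast-like cells 3221, 4326 and 3845. Fos was lowest in acinar-like cells, at 338, 832 and 920.3, an 11.2-fold distance between the highest and the lowest class mean. Of the 11 neighbouring pairs in its order of classes, 5 did not overlap, the most of any member. Fosb (chr7:19302696-19310118), a close relative of Fos, led in duct-like cells with 2298, 1792 and 2052 and was lowest in acinar-like cells with 70.0, 59.9 and 136. Lymphoid-like cells stood higher in the order of Fosb, at 1261, 959 and 635, than in that of Fos, at 1047, 1341 and 1100.

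Jun (chr4:95049036-95052222), the principal activating partner of Fos, was highest in duct-like cells at 7585, 7307 and 6521 CPM. Tfrchi-like cells came next with 3950, 4973 and 5383, so that this acinar type stood near the top for Jun while acinar-like cells had 517, 1390 and 1290. Monocyte/dendritic-like cells had the lowest mean, with 1003, 555 and 739. Junb (chr8:84976909-84978748), which can antagonise Jun and also drives programmes of T cells and innate lymphocytes, was close to even across the upper classes. Duct-like cells had 3552, 2867 and 2950 and lymphoid-like cells 3487, 2832 and 2433, and no neighbouring pair in its order was free of overlap. Jund (chr8:70697739-70700616), the Jun gene with the steadiest expression in resting cells, had the narrowest range of class means after Junb and Ier2. It was highest in Tfrchi-like cells at 1639, 3198 and 3611 and lowest in macrophage-like cells at 362, 507 and 536. The Male values in macrophage-like cells were only 1.14 and 1.07 times what free RNA could give.

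Egr1, a zinc finger factor induced by growth factors and stretch, had the widest range of all members, with 50.2-fold between its highest and lowest class mean. Fibroblast-like cells had 4847, 2544 and 2971 CPM, MEC-like cells 3439, 2921 and 3303 and duct-like cells 3450, 2668 and 2927, and these classes overlapped. Acinar-like cells had 78.2, 61.6 and 66.6 and lymphoid-like cells 155, 90.7 and 68.8. All 3 lymphoid-like values were below the level that free RNA could give and are read as background. The acinar-like counts lay at or near that level, so the 50.2-fold range rests on a lowest value close to background. Atf3 (chr1:191170296-191183333), a stress-induced factor of the ATF/CREB family, was highest in duct-like cells at 3171, 3873 and 4081. Macrophage-like cells were second for this gene, at 2685, 2181 and 1846, although they were among the lower classes for the sum. Fibroblast-like cells, which had high Fos and Egr1, had little Atf3, at 96.9, 204 and 214. Nr4a1 (chr15:101253902-101274795), an orphan nuclear receptor, was highest in lymphoid-like cells at 1466, 518 and 471, where the Female library stood far above the Male libraries (818 ± 561, n = 3). Monocyte/dendritic-like cells followed with 759, 337 and 316 and acinar-like cells were lowest with 27.6, 30.0 and 20.9.

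Ier2 (chr8:84661331-84662852), a small nuclear protein of the early response, was highest in duct-like cells at 1874, 1417 and 1536 CPM and in Tfrchi-like cells at 957, 1373 and 1607. Its lowest mean, in macrophage-like cells, came from 406, 292 and 285. Zfp36 (chr7:28376784-28379228) was highest in duct-like cells at 2402, 1776 and 1756, and no neighbouring pair in its order was free of overlap. Macrophage-like cells, in which tristetraprolin restrains TNF, had 2197, 1102 and 1081. Acinar-like cells had 110, 242 and 243.

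**Figure D2:**
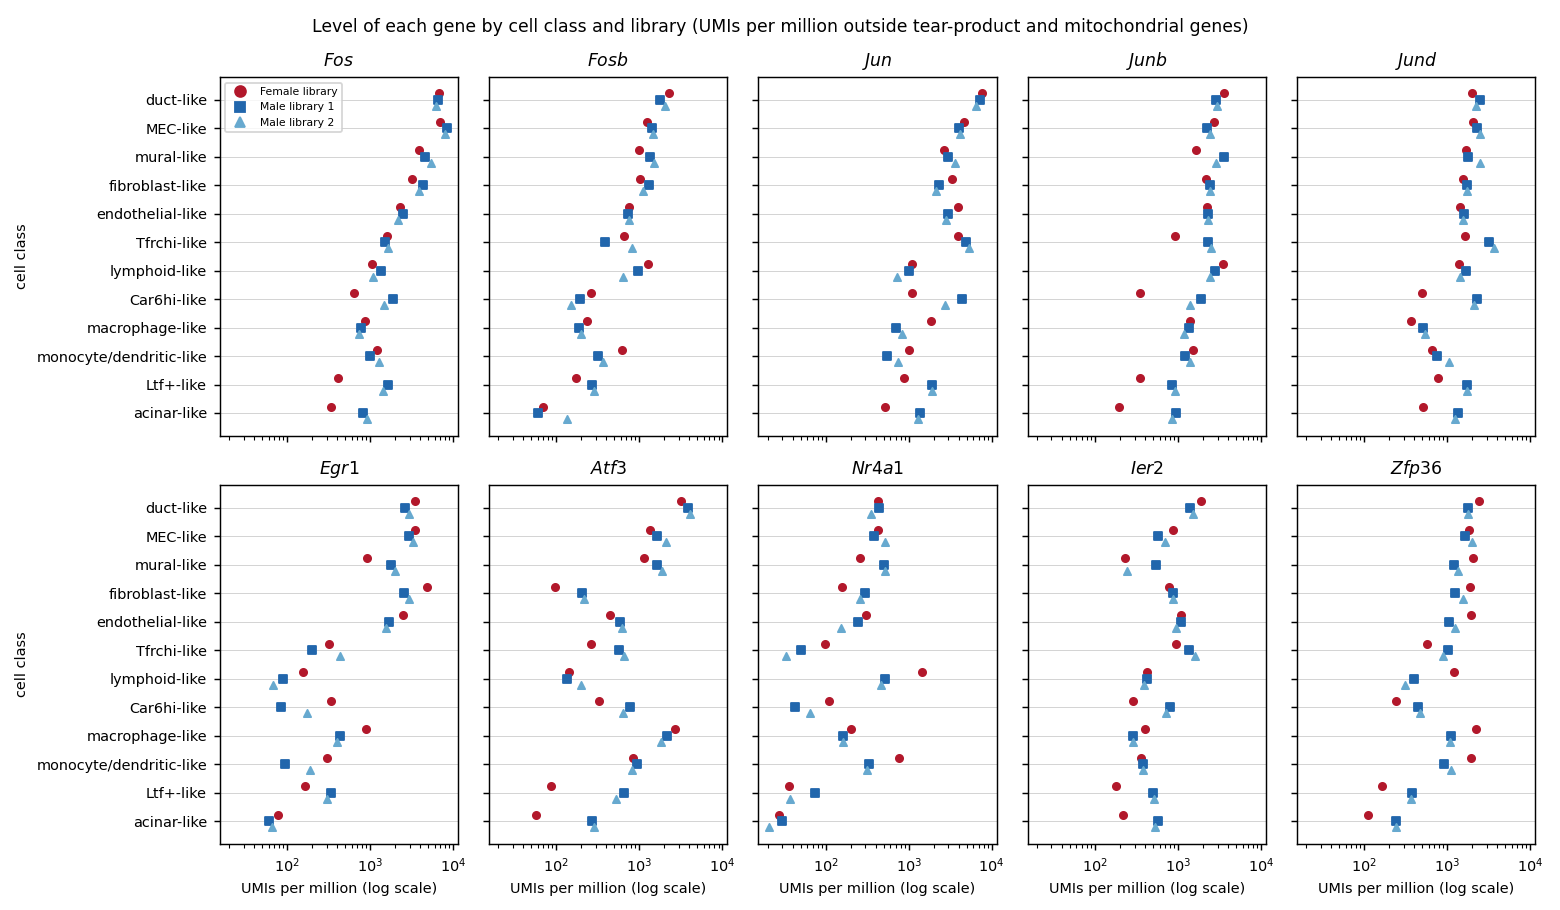
Level of each of the 10 genes (x axis, CPM, log scale) in 12 cell classes (y axis, ordered by the sum of the genes). Points are the 3 libraries. By their mean, 6 genes are highest in duct-like cells, whereas Fos is highest in MEC-like, Nr4a1 in lymphoid-like, Egr1 in fibroblast-like and Jund in Tfrchi-like cells, and 6 genes are lowest in acinar-like cells.

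To ask which classes stood apart for each gene, the sums were fitted with edgeR's quasi-likelihood test with the library as a block, 1 class against the mean of the other 11, and p-values were adjusted over all 8806 genes tested in each comparison. All 10 members passed the filter on low counts. Of the 120 pairs of gene and class, 86 were called at an adjusted p under 0.05, 46 higher and 40 lower, against 33.1% of all pairs of gene and class (22.8% higher and 10.4% lower). Duct-like cells were called higher for all 10 members (25.5% of all genes were higher and 5.94% lower there) and MEC-like cells for 9 (26.2% of all genes higher, 8.34% lower), with Ier2 as the exception. Fibroblast-like cells were called higher for 8 members (33.5%) and lower for Atf3 (9.90%). Endothelial-like cells were higher for 5 (27.9% higher, 9.99% lower), Fosb, Jun, Egr1, Ier2 and Zfp36. Mural-like cells were higher for Fos, Fosb, Egr1 and Atf3 (11.7%) and lower for Ier2 (5.88%).

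In the immune classes the number of members called higher was near the share of all genes. Lymphoid-like cells were called higher for Fosb, Junb and Nr4a1 (21.2% of all genes) and lower for Fos, Jun, Egr1 and Atf3 (11.0%). Macrophage-like cells were higher for Atf3 and Zfp36 (25.8%) and lower for Fos, Fosb and Jund (15.9%). Monocyte/dendritic-like cells were higher for Atf3, Nr4a1 and Zfp36 (21.4%) and lower for Jun, Jund and Egr1 (13%). Among the secretory classes, acinar-like cells were called lower for 9 members, all but Ier2 (32.9% of all genes higher, 15.7% lower), and Ltf+-like cells for 9, all but Jund (22.0% higher, 6.39% lower). Car6hi-like cells were lower for 6, Fos, Fosb, Junb, Egr1, Zfp36 and Nr4a1 (8.03% higher, 5.92% lower). Tfrchi-like cells were higher for Jun and Ier2 (17.2%) and lower for Fos, Egr1, Atf3 and Nr4a1 (16.3%). In none of the alternatives run was a called pair called in the other direction, while the number called ranged from 62 with free RNA subtracted to 96 without the Female library.

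Within the epithelium, the average of duct-like and MEC-like cells was higher than that of the acinar-like, Car6hi-like and Tfrchi-like classes for all 10 genes. This did not hold for each class alone, since Tfrchi-like cells had a higher mean than both for Jund and than MEC-like cells for Jun and Ier2. All 10 were called higher, against 35.2% of the genes tested that were higher and 15.8% that were lower (51.0% called), and the median log2 difference was 2.80 for the members and 0.41 for all genes. Egr1 differed the most, by 4.53 (SE 0.213, adjusted p = 1.02e-20 by edgeR), followed by Nr4a1 at 3.35, Fosb at 3.19, Atf3 at 3.13 and Fos at 3.02. The acinar-like counts of Egr1 lay at or near what free RNA could give, so the size of its difference is coarse. The Jun family differed less, with Jun at 1.54, Junb at 1.74 and Jund at 0.86 (SE 0.159, adjusted p = 1.63e-05). Zfp36 was at 2.58 and Ier2 at 1.02. In each library and for every member the mean of the duct-like and MEC-like levels lay above the mean of the 3 acinar classes. For Jund and Ier2 this rested mostly on the Female library, where the log2 ratios of the means were 1.17 and 1.48. The Male libraries had 0.06 and 0.03 for Jund and 0.11 and 0.23 for Ier2. Junb and Jun also differed more in the Female library, at 2.66 and 1.71. Their Male values were 0.56 and 0.76 for Junb and 0.66 and 0.75 for Jun. Fos, Atf3 and Zfp36 had larger ratios in the Female library too, and Nr4a1 a smaller one. Fosb and Egr1 lay between the Male libraries. Genes that most cells express were also higher in this comparison, with Actb at 2.89, Ppia at 1.60 and Tmsb4x at 1.32 as the 3 with the smallest adjusted p in a list of such genes. Actb lay above Zfp36, Ier2 and the whole Jun family, Ppia above Jun, Jund and Ier2, and Tmsb4x above Jund and Ier2. The median of all genes moved from 0.41 to 1.95 when library sizes were not scaled by TMM. The smallest difference of a member was then 2.33.

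Between the non-epithelial and the epithelial classes the members did not move together. Zfp36 (1.28, SE 0.153, adjusted p = 2.89e-09) and Nr4a1 (2.01, SE 0.167, adjusted p = 2.61e-13) were higher in the non-epithelial classes by edgeR, as were Fosb (0.91), Junb (0.93) and Egr1 (0.83). Jun was lower by 0.49 on the log2 scale (SE 0.140, adjusted p = 0.00321). Fos (0.20), Atf3 (0.12), Jund (-0.20) and Ier2 (-0.21) were not called, with adjusted p of 0.167, 0.586, 0.115 and 0.168. The 5 higher and 1 lower stood against 48.5% of all genes called, 22.2% higher and 26.3% lower, a share of members near that background. The call for Jun was lost without Male library 1 (-0.25, adjusted p = 0.292) and without Male library 2 (-0.33, adjusted p = 0.169), whereas Jund and Ier2 were called lower without the Female library (-0.41 and -0.37). Atf3 became lower (-1.41, adjusted p = 0.00477) when free RNA was subtracted, and Egr1 then turned to -0.14 (adjusted p = 0.836). Fosb was not called when all cells of a side were put in 1 sum per library (0.63, adjusted p = 0.194). Genes that most cells express were also higher here, with Tmsb4x at 2.27, Actb at 1.83 and Tpt1 at 0.66 as the 3 of their list with the smallest adjusted p. Without TMM scaling 8 were called higher and 0 lower, as the median of all genes moved from 0.04 to 0.64.

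The direction also depended on how the classes were averaged, since the test averages log levels and gives the low values of acinar-like and Ltf+-like cells full weight. When arithmetic means of the class levels were compared, Junb, Zfp36 and Nr4a1 were higher in the non-epithelial classes in all 3 libraries. Fos, Jun, Jund and Ier2 were then lower in all 3, with mean Fos levels of 2092, 2423 and 2433 CPM in the non-epithelial and 2781, 3480 and 3289 in the epithelial classes. Fosb, Egr1 and Atf3 differed in direction between libraries.

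**Figure D3:**
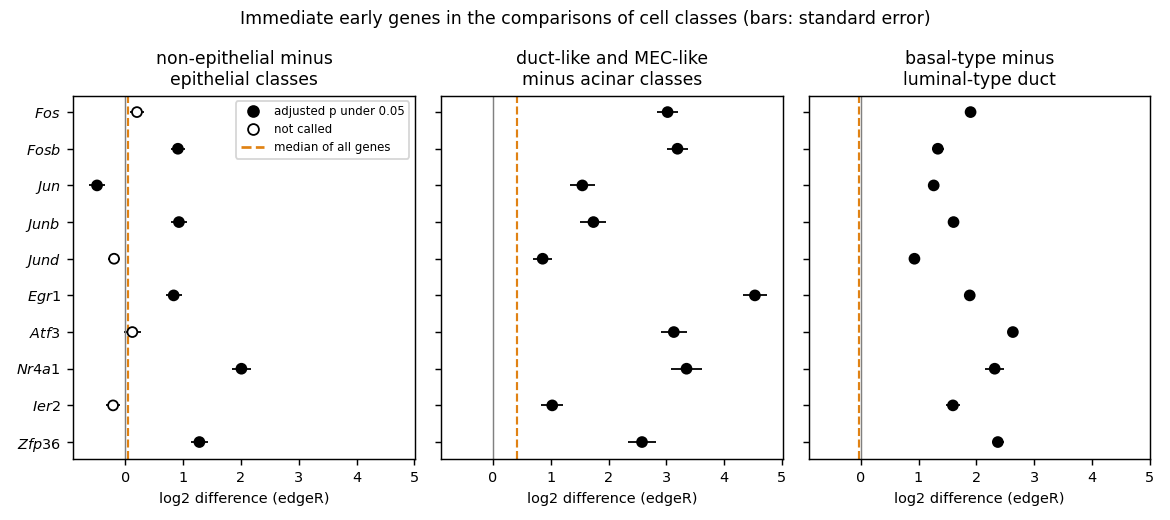
Log2 difference of each gene (x axis) with its standard error in 3 comparisons of cell classes, fitted by edgeR over 3 libraries. Filled points had an adjusted p under 0.05, open points did not, and the dashed line is the median of all genes tested. All 10 genes lie at 0.86 or more in the comparison with the acinar classes and at 0.93 or more in the comparison of duct cells, but on both sides of 0 between non-epithelial and epithelial classes.

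The duct-like cells were not uniform. Their 5 sub-clusters were named basal-type (Krt5, Krt14, Krt17, Smoc2 and F3) or luminal-type (Wfdc2, Krt19, Gpha2 and Krt8) from these markers. The sum of the 10 genes was 45469, 38080 and 37455 CPM in basal-type cells (623, 222 and 173 cells) and 14001, 12641 and 14190 in luminal-type cells (461, 107 and 101 cells), with no overlap. All 10 members were called higher in basal-type cells, against 10.3% of the 2714 genes tested that were higher and 7.59% that were lower (17.9% called). Stress genes were among the leading genes of basal-type sub-clusters 1 and 3, described below. The groups can therefore not be taken as formed independently of the stress response, and these calls describe the groups as found. Atf3 differed the most, by 2.63 on the log2 scale (SE 0.0928), with 4658, 5059 and 5287 against 741, 729 and 1168 CPM. Zfp36 followed at 2.37 (SE 0.107) and Nr4a1 at 2.32 (SE 0.161). Jund differed the least, by 0.93 (SE 0.0917), and had the largest adjusted p by edgeR at 9.57e-17. With 3 libraries, p-values this small rest on the spread pooled over all genes, and each member was higher in basal-type cells in 3 of 3 libraries.

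The basal-type cells themselves fell into sub-clusters with very different levels. Sub-cluster 3, led by the co-chaperone Dnajb1 and the matricellular gene Ccn1 among its top genes, had sums of 54614, 49076 and 46965 CPM. Sub-cluster 1, led by the metallothioneins Mt1 and Mt2, Cxcl1, Atf3 and Ccn1, had 61131, 38272 and 41313. Sub-cluster 2, led by no early or stress gene of the lists, had 23694, 24180 and 19583. The luminal-type sub-clusters 0 and 4 had 12552, 12717 and 14012 and 19804, 12117 and 14605. Sub-clusters 1 and 3 thus had stress genes among their leading genes, although the 10 genes had been left out of the features. Sub-cluster 2 was then taken alone, a choice made after seeing the data and by leading genes from lists that include the members. Low levels of the members were thereby favoured, so it is no independent check. When only its basal-type cells were kept, 8 of the 10 members were called higher, against 6.68% of 1228 genes, with a median of 0.68. Jund (0.24, adjusted p = 0.315) and Nr4a1 (0.59, adjusted p = 0.220) were not called. Among genes that most cells express, Actb was higher in basal-type cells as a whole (0.99) and Tpt1 lower (-0.33). Median UMIs per cell in the Female library were 3942 in sub-cluster 1 and 3638 in sub-cluster 2.

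**Figure D4:**
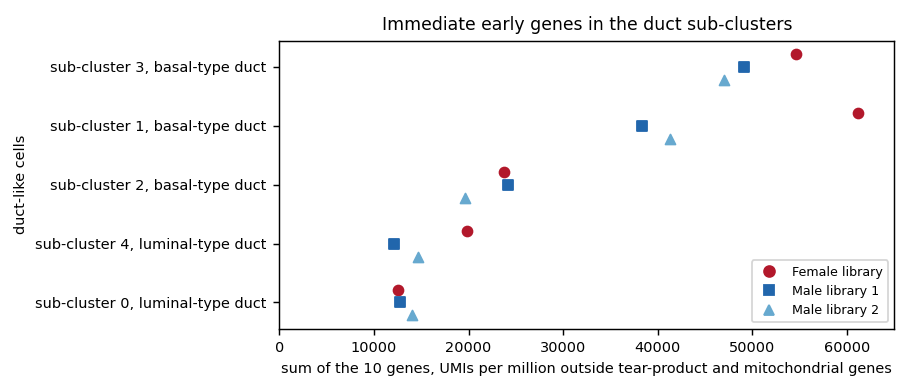
Sum of the 10 immediate early genes (x axis, CPM) in the 5 sub-clusters of duct-like cells (y axis). Points are the 3 libraries. Basal-type sub-clusters 1 and 3 lie between 38272 and 61131, basal-type sub-cluster 2 between 19583 and 24180 and the luminal-type sub-clusters between 12117 and 19804.

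Other classes also held subsets that differed, given here without a test. Parenchymal-like fibroblasts had sums of 23684, 20405 and 20507 CPM, and adventitial-like fibroblasts 7508, 8296 and 7440. Egr1 alone was 6202, 3037 and 3693 in the former and 1495, 1113 and 1028 in the latter. Among lymphoid-like cells, those like innate lymphoid cells (ILC) had Junb at 7658, 4439 and 3732 and Nr4a1 at 3898, 1172 and 1335. NK-like cells had Junb at 1109, 1958 and 1800 and Nr4a1 at 215, 205 and 153, so that ILC-like cells were above NK-like cells for both genes in every library. T-like cells are not described apart, because 1 of their clusters (91, 47 and 123 of 223, 98 and 215 cells) was led by immunoglobulin genes. The cells of that cluster remain in the lymphoid-like sums and tests.

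Macrophages with inflammatory features (M1-like) had Atf3 at 3319, 2898 and 2580 CPM, Trem2hi-like macrophages had 2285, 1599 and 1322 and M2-like macrophages had 411, 873 and 1119, without overlap between the 3 groups. Venous-like endothelial cells had Atf3 at 1280, 767 and 1069 and Zfp36 at 5101, 1629 and 2276, all above the capillary-like cells at 97.0, 351 and 394 and at 775, 695 and 787. Fos went the other way in the Male libraries, with 1438 and 1253 in venous-like and 2746 and 2827 in capillary-like cells, while the Female library had 3432 and 1644. The summed level of venous-like cells, 25035, 12483 and 13397, accordingly overlapped with that of capillary-like cells, 11809, 14280 and 15497.

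To compare single cells at equal depth, each cell was thinned to 300 UMIs outside tear-product and mitochondrial genes, which left out 150, 421 and 474 shallower cells. Duct-like cells then held a mean of 9.71, 9.15 and 8.90 UMIs of the 10 genes, and 63.4%, 71.3% and 67.1% of them had at least 5. Acinar-like cells held 0.861, 2.29 and 1.90. Cells without any UMI of the 10 genes made up 9.41% of duct-like cells in the Female library (95% exact binomial interval 7.74 to 11.3, covering counting error only) and 59.3% of acinar-like cells (54.9 to 63.6). In the Male libraries they were 7.26% and 9.30% of duct-like and 26.6% and 32.1% of acinar-like cells. The 10% of duct-like cells with the highest counts carried a mean of 25.4% of these UMIs, and the 10% of acinar-like cells with the highest counts 41.7%.

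For single genes, Jun was detected in 75.6% of thinned duct-like cells and Fos in 65.7%, as means over the libraries (90.0% and 79.0% before thinning). The share with Egr1 was 51.3% in fibroblast-like, 49.9% in MEC-like and 48.1% in duct-like cells, against 2.68% in acinar-like and 2.85% in lymphoid-like cells, where the counts lay at or near free RNA. Atf3 was found in 47.4% of duct-like and 45.0% of macrophage-like cells, but in 4.01% of fibroblast-like and 4.72% of lymphoid-like cells. Nr4a1 was found in 18.5% of lymphoid-like cells and in at most 12.4% of any other class. Median depths before thinning ranged from 1034 to 2289 UMIs in lymphoid-like and from 1310 to 3728 in duct-like cells.

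In duct-like, MEC-like and macrophage-like cells, a larger share of the cells with Fos than of those without held Jun. In thinned duct-like cells, Jun was found in 88.5%, 87.3% and 85.0% of the cells with Fos and in 56.4%, 61.0% and 44.7% of those without. In MEC-like cells the shares were 80.2%, 68.0% and 66.5% against 27.8%, 40.9% and 36.7%. Macrophage-like cells had 49.2%, 23.4% and 20.4% against 37.6%, 15.3% and 15.4%. Among the other classes the order was opposite in monocyte/dendritic-like cells of Male library 2, with 13.2% against 19.5%, and in Car6hi-like cells of Male library 1, with 62.5% against 63.3%. The correlation of Fos and Jun UMIs over thinned cells averaged 0.40 in duct-like cells, from 0.34 to 0.48 by library. It is a description over cells that share a library, and in such sparse counts it is limited by the few UMIs per cell.

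Within some classes the summed genes differed between cells split at the median of a measure of depth or composition, and in others hardly. Duct-like cells above the median of UMIs outside tear-product and mitochondrial genes had 0.60 ± 0.03 (log2) more of the summed genes than those below, and those above the median mitochondrial share had 0.53 ± 0.36 less. Acinar-like cells above the median mitochondrial share had 1.11 ± 0.28 more, those above the median of UMIs 0.74 ± 0.26 less and those above the median tear-product share 1.28 ± 0.14 less. Lymphoid-like cells above the median of UMIs had 0.61 ± 0.08 less. In fibroblast-like cells the split by UMIs gave a difference of -0.0075 ± 0.22, and in endothelial-like cells the split by mitochondrial share gave 0.07 ± 0.05. These are means and SDs of the 3 libraries, and the part of depth or cell quality in the differences between classes was not tested.

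Between libraries there was no test, since the Female group had 1 library. Counted at a 2-fold difference on the scale of log2(level + 10), 9 of the 120 pairs of gene and class were higher in the Female library than in the mean of the Male libraries and 25 were lower, against 6.20% and 7.01% of all gene-class pairs. The Male libraries differed 2-fold from each other in 4 of the 120, against 17.0% of all pairs. All pairs are here those with a mean of at least 10 CPM, which in classes with few UMIs rests on very few counts. The Male libraries differed in 4765 of 8602 genes in mural-like cells, but in 5 of 7429 in acinar-like cells. Most members lay far above that minimum, so these shares are not matched to their levels. The 25 lower pairs lay mostly in the secretory classes, with 7 in acinar-like (2.69% of all genes), 7 in Ltf+-like (1.87%), 6 in Car6hi-like (13%) and 3 in Tfrchi-like cells (20.9%), and with 1 each in fibroblast-like (1.76%) and mural-like cells (24.4%). The share in Tfrchi-like cells was near that of all genes. The farthest pairs were Atf3 in Ltf+-like cells, with a log2 difference of -2.65, and Junb in Car6hi-like (-2.20) and acinar-like cells (-2.15), where Atf3 was at -2.08. Egr1 and Nr4a1 did not share this pattern in acinar-like cells, with differences of 0.25 and 0.08 (-0.29 and -0.30 on the scale without the 10 transcripts named further on). Their counts there were 0.772 to 2.21 times what free RNA could give for Egr1, and for Nr4a1 free RNA held 3, 1 and 3 UMIs, too few for such a ratio. The 9 higher pairs included Zfp36 (1.74) and Nr4a1 (1.55) in lymphoid-like cells (5.03% of all genes), Jun (1.29), Egr1 (1.06) and Zfp36 (1.00) in macrophage-like cells (2.84%) and Nr4a1 (1.19) and Egr1 (1.06) in monocyte/dendritic-like cells (8.62%). The remaining pairs were Egr1 in Car6hi-like cells (1.31, against 12.4% of all genes), where both Male values were below what free RNA could give, and Nr4a1 in Tfrchi-like cells (1.08, against 13.5%). Duct-like and MEC-like cells had no pair past 2-fold.

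Depth and composition differed between the libraries in the same classes. Acinar-like cells had medians of 21941, 10008 and 9210 UMIs and mitochondrial shares of 0.738%, 2.36% and 0.656%, and Ltf+-like cells 10372, 2497 and 2198 UMIs. Free RNA could give 26.5%, 14.9% and 23.8% of the members' UMIs in acinar-like cells. The list of tear-product genes decides the scale there. Without 10 transcripts added to it after the acinar-like sums were seen, the acinar-like sums were 780.2, 3356 and 3218 CPM and the pairs past 2-fold 9 higher and 26 lower. With all UMIs as the total, 28 pairs were higher and 19 lower. The part of these measures in the differences was not tested.

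**Figure D5:**
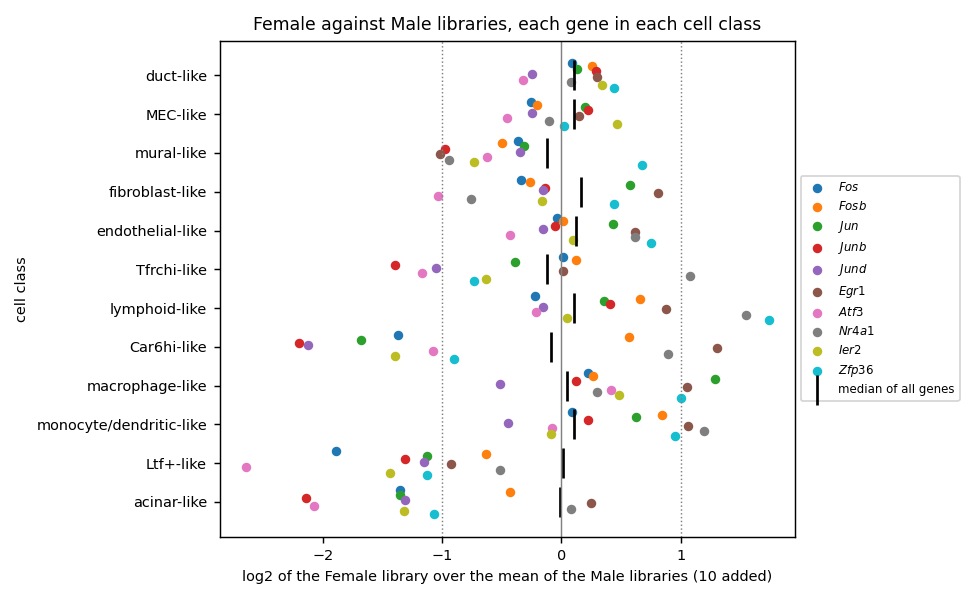
Log2 difference of the Female library from the mean of the Male libraries (x axis, CPM with 10 added) for each of the 10 genes in 12 cell classes (y axis). Black bars are the median of all genes in the class and dotted lines mark 2-fold. In acinar-like and Ltf+-like cells 7 of the 10 genes lie past the lower line, while in duct-like and MEC-like cells none passes either line.

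The other genes of the early response were followed in lists chosen for their function. Of 19 early feedback genes, 17 were tested between duct sub-types and 15 were higher in basal-type cells and 0 lower, with a median of 0.95, against 10.3% higher and 7.59% lower of all genes. Gadd45b (2.69), Gadd45g (2.14) and Btg2 (1.42), stress-induced restraints on the cell cycle, had the smallest adjusted p. Of 6 other early transcription factors tested there 3 were higher, Klf6 (1.41), Csrnp1 (2.46) and Ier5 (0.84), and all 4 tested NF-kB genes were higher with a median of 2.31. Of 12 heat shock genes only 2 were higher and 1 lower, with a median of 0.04, close to the median of -0.03 over all genes. Dnajb1 (1.65) and Hsp90aa1 (0.34) were the higher genes and Hspa1a (-0.44) the lower. Of 4 other AP-1 genes tested 1 was higher, the small Maf gene Mafk (1.09, adjusted p = 0.0491).

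Against the acinar classes, 15 of the 19 feedback genes were higher in duct-like and MEC-like cells and 2 lower (35.2% and 15.8% of all genes), led by Ccn2 (5.64), Ccn1 (4.24) and Gadd45b (5.91). There 11 of 12 heat shock genes were higher, with a median of 0.81, against 0.41 over all genes. Between non-epithelial and epithelial classes, 9 of 12 other early transcription factors were higher and 0 lower, led by the endothelial and lymphoid factor Klf2 (3.79). In the same comparison, where 22.2% of all genes were higher and 26.3% lower, 8 of the 19 feedback genes were higher and 6 lower, with a median of 0.35 against 0.04 over all genes. There 7 of 10 NF-kB genes were higher and 0 lower, led by Nfkbia (2.36) and Nfkbiz (2.41), inhibitors that NF-kB induces. Of the 17 upstream kinases and factors, 15 passed the filter, and 8 were higher and 1 lower.

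The genes most like the 10 in their level over the 36 sums of class and library were found by their Pearson correlation with the mean log2 level of the members, among 3277 genes with a mean of at least 50 CPM. They were Dnajb1 (0.83), Socs3 (0.81), Tsc22d1 (0.77), Dusp1 (0.76), Tppp3 (0.76), Ehd2 (0.75), Ccnd2 (0.75), Irf1 (0.75), Klf4 (0.75) and Adamts1 (0.74). Dnajb1, a co-chaperone of the heat shock response, ranged from 29.8 to 1602 CPM, and Dusp1, a phosphatase that ends MAP kinase signals, from 100.3 to 1695. Among the members themselves, Fosb had the highest median correlation with the other 9 (0.73), with Fos at 0.70, and Atf3 the lowest (0.43). Fos and Fosb reached 0.83, and Nr4a1 and Ier2 0.03. The 36 sums come from 3 libraries and share their free RNA, so these values describe likeness and carry no p.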

How the data were processed

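The UMI counts per gene and cell barcode of 3 libraries were used as deposited by the authors. Per the submitters' processing notes they came from Cell Ranger 6.1.2 on mm10, with called and full barcode sets, but the headers of the full sets, which give the free RNA levels, name Cell Ranger 4. Of the called barcodes, those over 500 UMIs and 200 genes with a mitochondrial share under 15% were kept, and doublets at 0.8% per 1000 cells were removed by their Scrublet score (scanpy 1.11.5, Python 3.11.15), which took 646, 287 and 315 cells. Cells were clustered with Seurat 5.3.0 and sctransform 0.4.2 (3000 features, 30 dimensions, resolution 1, and 0.5 for duct-like cells). From the features, 350 genes were left out, among them tear genes and the early and stress genes of the lists. The authors tested single cells, but cells are not replicates, so UMIs were summed per class and library (at least 20 cells) and tested with edgeR 4.0.16 (quasi-likelihood, TMM, library as block) in R 4.3.3 with Benjamini-Hochberg adjustment over all genes tested. The fits were tested on simulated data, where small changes were often missed, most in the comparison of duct sub-types, so that a gene not called may still differ.

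The members, gene lists and markers were chosen with earlier results of these data known, the naming rules (score of at least 0.5, at least 3 markers) were set after the clusters were seen, and the list of 128 tear-product genes was extended by 10 transcripts after the acinar-like sums were seen. All 10 members are described. From each list, values are given for at most the 3 genes with the smallest adjusted p, and the genes most like the members are the 10 with the highest Pearson correlation over the 36 sums. Log2 differences between libraries and log2 levels in correlations had 10 added. With the library as a block, p-values rest on the variation of the sums left after class and library. It is taken over all classes of a fit and pooled over genes. The p-values do not measure the spread of a single difference over these 3 pools of mice, nor over animals. Alternatives were DESeq2 1.42.0, other scalings, filters, doublet rates and left-out libraries. Promoters came from RefSeq on GRCm38.p6. Intervals cover counting error only. Counts over the list of widely expressed genes are not reported here.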

Additional observations from a re-analysis of the deposited data

Results flagged for a closer look

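For 3 genes the Female library and both Male libraries lay on opposite sides of 0 when the mean log2 level of the epithelial classes was subtracted from that of the non-epithelial classes. Fos stood at 0.37 in the Female library and at -0.34 and -0.29 in the Male libraries. Atf3 stood at 0.48 against -0.51 and -0.45. For Jun the Female value of 0.0048 was close to 0, while the Male libraries had -1.28 and -1.11. The difference between the sexes was not tested, since there was 1 Female library, and sex cannot be told apart from the core and the day.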

How the results depend on the processing

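Of 447 recomputed values, 369 of single genes kept their direction and their side of the threshold and 56 counts or means stayed within 1.5 times or 1 SD of the main value. The pairs of gene and class entered these values only as counts. With all cells of a side in 1 sum, 1 called pair changed sign but was not called in its new direction. All single-gene values that turned in direction belonged to the comparison of non-epithelial with epithelial classes. Without TMM scaling Jun moved to 0.0291, Jund to 0.34 and Ier2 to 0.32. Atf3 ranged from -0.15 to 0.29 with 1 library left out, and moved to -0.0434 with a mitochondrial share under 5%, to -0.0341 with 2 times the doublets removed and to -1.41 with free RNA subtracted, and Egr1 then moved to -0.14. The cause was not tested. In the library comparison the pairs higher in the Female library went from 9 to 28 with all UMIs as the total. Leaving out 1 library gave 5 to 8 members called between non-epithelial and epithelial classes, 10 in both duct comparisons and 71 to 96 pairs of gene and class. With all cells of a side in 1 sum, Fosb (0.63, adjusted p = 0.194) and Jun (-0.27, adjusted p = 0.176) were no longer called. No paired analysis of the Female and Male groups was possible, because their libraries came from different mice and the replicate numbers match nothing between them. For the cell classes, which come from the same libraries, the fit with no replicate block called 6, 10 and 10 members in the 3 comparisons, as with the block, and 74 pairs against 86. Free RNA limited what low counts can show: Male Zfp36 in lymphoid-like cells lay near what it could give, and Male Egr1 and Atf3 below. Its mean was 9535 ± 1424 CPM in barcodes of 10 to 100 UMIs and 9625 ± 2260 in those of 1 to 50, but the Female level went from 8095 to 12235 and that of Male library 1 from 10943 to 8323.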

Other observations

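Cells outside the 12 classes also held the 10 genes, summed in CPM as above. Mast-like cells numbered 10, 4 and 7, and their sums of 51743, 24450 and 25363 were from too few cells for a comparison. Epithelial cells without a name (269, 178 and 256 cells) had 14079, 7150 and 5384. Cycling-like cells (54, 42 and 30 cells) had 5913, 6055 and 4345, and the remaining unnamed cells (18, 35 and 39 cells) had 3778, 3042 and 3316.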
